A study of Mus musculus with 23 samples.

Results

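Splicing factors and exon junction genes made up 63 of the 24411 gene symbols in the count table of cortical astrocyte RNA. Members were chosen by symbol. They were all genes named Srsf followed by a number (11 SR proteins), Hnrnp (20 hnRNP proteins), Clk1 to Clk4 (4 kinases), Snrp (12 small nuclear ribonucleoprotein proteins) and Sf3a or Sf3b (9 subunits of splicing factor 3), plus 4 genes of the exon junction core (Rbm8a, Magoh, Eif4a3 and Casc3) and 3 genes listed singly (Srek1, Ppp1r8 and Prkrip1). The list was drawn up with fold changes of these same libraries in view. Every value below is therefore a description of the members, and none is independent evidence that these genes respond to genotype or diet.

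RNA-seq was performed on cortical astrocytes isolated with magnetic beads against the astrocyte surface antigen ACSA-2, from 23 male mice at postnatal day 70. All 4 groups were homozygous for a floxed Aldh7a1 gene, which encodes a mitochondrial and cytosolic aldehyde dehydrogenase of lysine breakdown, and all received 4-hydroxytamoxifen at postnatal days 3 to 4. cKOAstro mice (n = 7) also carried the tamoxifen-activated recombinase CreER at 1 allele of Slc1a3, an astrocyte glutamate transporter gene, whereas ConAstro mice (n = 4) did not. SFN-fed cKOAstro (n = 7) and SFN-fed ConAstro (n = 5) mice had the same genotypes and were fed, from postnatal day 21, chow with SFN (sulforaphane), a plant compound that activates NRF2, a transcription factor of the antioxidant response. CreER follows the activity of Slc1a3, so deletion is limited to cells that used this gene when 4-hydroxytamoxifen was given, and to their descendants. The cKOAstro groups differ from the ConAstro groups in 1 Slc1a3 allele as well as in Aldh7a1.

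Splicing removes introns from new transcripts. Small nuclear ribonucleoproteins, each an RNA wrapped by Sm and specific proteins, recognise the ends of an intron and the branch point, where the SF3A and SF3B complexes hold the U2 particle. SR proteins bind exons and promote their inclusion, hnRNP proteins often oppose them, and CLK kinases phosphorylate SR proteins and so control when they are free to act. After splicing, Eif4a3, the Magoh and Rbm8a pair and Casc3 are left on the RNA as the exon junction complex, which guides export and translation and marks transcripts for nonsense-mediated decay.

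The upstream 250 bases of 4 members are shown because these genes carry the values described below. Ppp1r8 and Prkrip1 did not overlap between SFN-fed groups, and Srek1 did not overlap between SFN-fed ConAstro and ConAstro. Magoh holds, like Prkrip1, the core of the antioxidant response element to which NRF2 binds. The sequences are from RefSeq (GRCm38.p6, the build also called mm10), given 5′ to 3′ on the gene's own strand and ending just before a RefSeq transcript start. They lie at chr4:132843170-132843419 on the minus strand (Ppp1r8), chr5:136198955-136199204 on the minus strand (Prkrip1), chr13:103774609-103774858 on the minus strand (Srek1) and chr4:107879505-107879754 on the plus strand (Magoh). The last bases of the Prkrip1 window overlap the first exon of the gene in GENCODE M21, where its minus-strand start is at 136198963. Capitals mark a match on either strand to the antioxidant response element core TGACNNNGC (Prkrip1 and Magoh) or to the ETS factor core CCGGAAG, which Srek1 holds on the opposite strand. The Ppp1r8 window holds neither.
Ppp1r8: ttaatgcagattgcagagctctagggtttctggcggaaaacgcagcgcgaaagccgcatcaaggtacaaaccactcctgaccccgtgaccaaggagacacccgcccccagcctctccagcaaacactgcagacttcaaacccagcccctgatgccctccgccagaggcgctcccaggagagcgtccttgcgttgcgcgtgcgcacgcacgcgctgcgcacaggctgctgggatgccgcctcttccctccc
Prkrip1: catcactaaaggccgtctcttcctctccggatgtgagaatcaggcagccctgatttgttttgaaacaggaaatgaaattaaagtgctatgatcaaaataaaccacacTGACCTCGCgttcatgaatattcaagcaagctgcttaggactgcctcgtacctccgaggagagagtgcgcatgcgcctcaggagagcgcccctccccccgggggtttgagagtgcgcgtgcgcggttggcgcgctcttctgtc
Srek1: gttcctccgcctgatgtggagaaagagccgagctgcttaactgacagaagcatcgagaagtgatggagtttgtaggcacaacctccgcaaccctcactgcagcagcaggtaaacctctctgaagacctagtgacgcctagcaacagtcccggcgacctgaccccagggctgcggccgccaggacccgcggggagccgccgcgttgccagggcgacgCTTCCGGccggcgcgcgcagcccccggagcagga
Magoh: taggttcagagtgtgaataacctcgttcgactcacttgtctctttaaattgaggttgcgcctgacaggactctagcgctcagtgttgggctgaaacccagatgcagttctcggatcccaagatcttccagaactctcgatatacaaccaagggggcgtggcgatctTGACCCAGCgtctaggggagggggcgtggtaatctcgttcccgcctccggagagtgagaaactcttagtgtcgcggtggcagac
These letters are a description of the windows and not evidence of binding. RefSeq promoter windows were found for 54 of the 63 members (72 windows, since some genes have several starts), and 9 members, Rbm8a among them, had none in the table. The antioxidant response element core was in 12 of the 72 member windows (16.7%) and in 3338 of all 32851 windows of the same length (10.2%). The ETS core was in 21 member windows (29.2%) and in 2269 of all windows (6.91%). Member windows held a median of 19 CpG dinucleotides, against 6 over all windows.

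Depth did not limit detection: libraries held 46890715 to 391701247 counts, and all 63 members were detected in all 23 libraries and passed the filter on low counts in every comparison. Libraries labelled cKOAstro had 45.7 to 77.7 CPM (counts relative to the TMM-scaled library size) of Aldh7a1, against 207 to 222 in ConAstro. In the SFN-fed groups 1 library of each went against its label. The library labelled SFN-fed ConAstro 1 had 55.3 CPM (177 to 224 in the other 4), and the library labelled SFN-fed cKOAstro 2 had 221 CPM (42.8 to 57.8 in the other 6). Slc1a3 went against the label in the same libraries. It was at 2084 CPM in the former (4159 to 5623 in the other 4) and 4410 CPM in the latter (1594 to 2764 in the other 6). The library labelled cKOAstro 2 held 1536 CPM of Xist, the RNA of the inactive X chromosome (at most 0.705 CPM in the others), although every mouse was labelled male. Markers of other cells were present in every group: the 10 oligodendrocyte markers summed to 23610 to 62440 CPM per library and the 10 astrocyte markers to 15230 to 27670 CPM. The oligodendrocyte sum was above the astrocyte sum in all libraries but SFN-fed ConAstro 3 and SFN-fed cKOAstro 3. No unsorted tissue was compared, so enrichment of astrocytes was not measured. The values below are thus those of a mixed sample from an astrocyte isolation. In it a lower level may mean fewer cells of a type or less RNA per cell, and these cannot be told apart.

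The 63 members together took 0.546 to 0.669% of the counts of a library. Their levels per kilobase of exon in ConAstro (CPM per kilobase of merged exons, mean ± SD, n = 4) covered a wide range, plotted below by family. Hnrnpa2b1, an hnRNP protein that also directs RNA transport, was the most abundant at 69.7 ± 3.02, and Srsf5, an SR protein, was next at 61.3 ± 3.66. Hnrnpk (53.9 ± 0.728) and Hnrnpa0 (51.6 ± 5.12) followed and did not differ beyond their spread. The lowest was Snrpn, an Sm protein gene of the imprinted Snurf-Snrpn locus that is mainly used in neurons, at 0.113 ± 0.0483. Its near-identical and widely used relative Snrpb was at 41.4 ± 1.38 and was the most abundant of the snRNP protein genes.

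By family, the median level per kilobase in ConAstro was 26.1 for hnRNP proteins, 22.7 for SR proteins, 19.1 for the exon junction core, 11.9 for SF3 proteins, 10.2 for CLK kinases and 7.63 for snRNP proteins. The median over all 13701 genes at or above 1 CPM was 5.84. Merged exons can be much longer than 1 transcript, as for Clk1 (8132 bases, against 1796 in its longest coding transcript). Levels per kilobase, and the order of the families, thus depend on the length used. Within the exon junction core, Eif4a3, the RNA helicase that clamps the complex on RNA, stood at 37.7 ± 1.13, well above Magoh at 19.9 ± 2.48, Casc3 at 18.3 ± 0.701 and Rbm8a at 15.3 ± 1.05. Magoh and Casc3 did not differ beyond their spread. Among the kinases, Clk1 (17.8 ± 1.44) was above Clk4 (11.6 ± 1.01) and Clk3 (8.89 ± 1.03), and Clk2 (1.30 ± 0.141) was among the 3 lowest members. Srsf12, an SR-like protein with restricted expression, was the lowest SR gene at 1.22 ± 0.167, and Srsf4 (5.12 ± 0.236) was the next lowest.

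**Figure D1:**
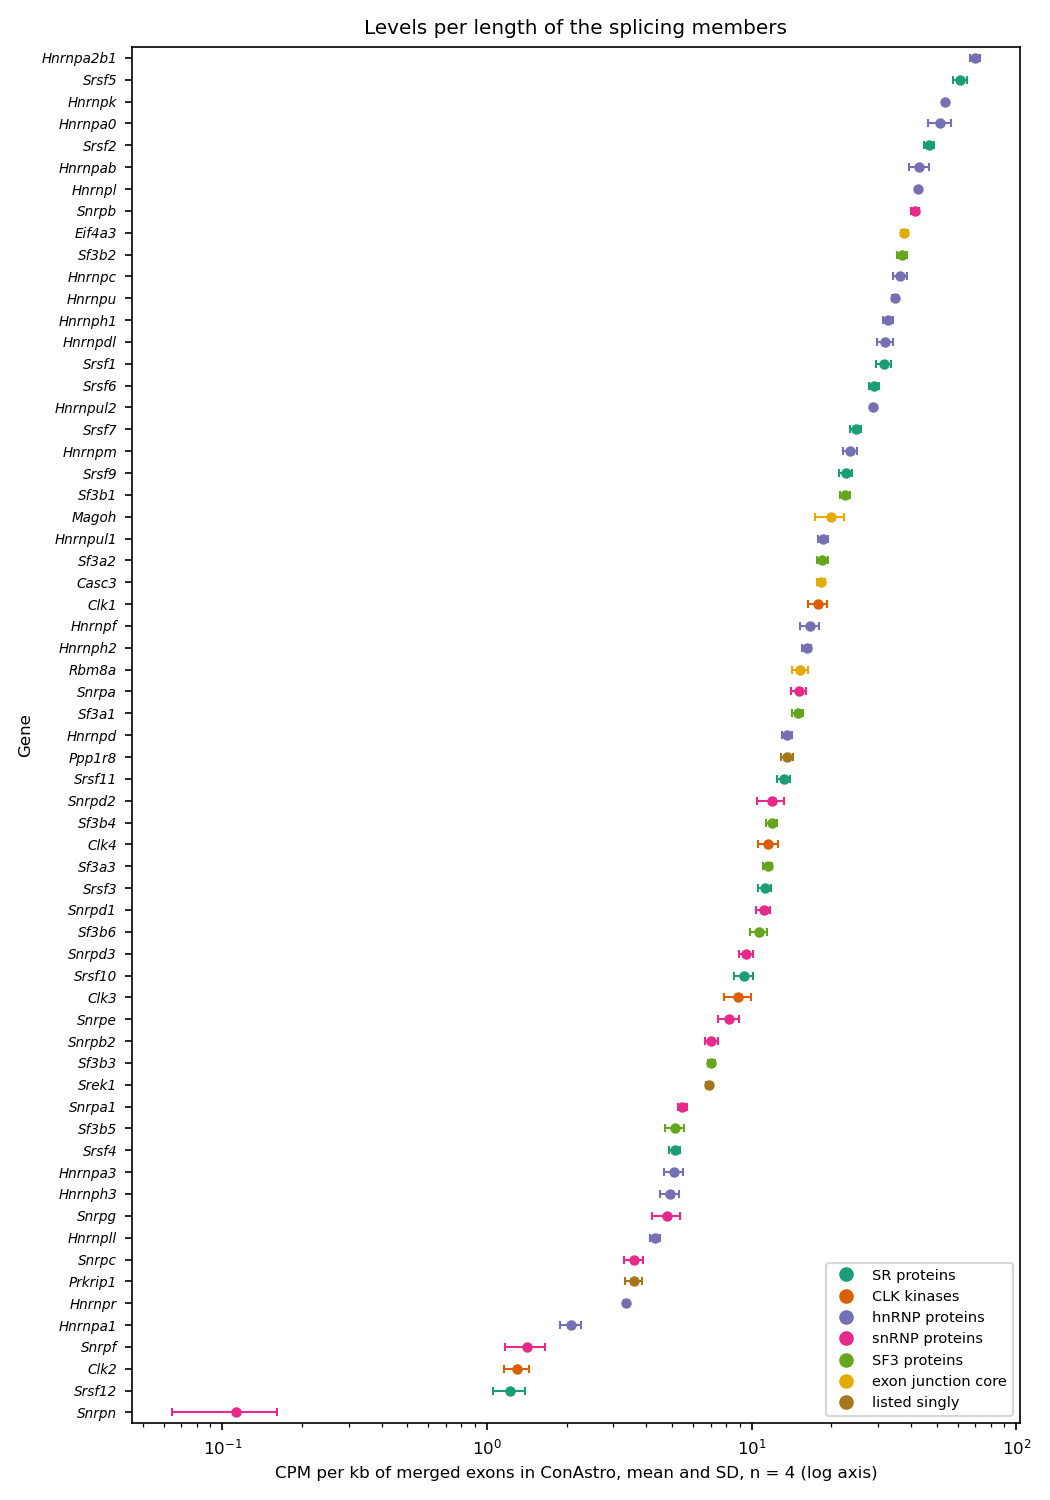
Level of each of the 63 members in ConAstro, as CPM per kilobase of merged exons on a log axis (mean and SD, n = 4 mice), ordered from high to low and coloured by family. Hnrnpa2b1 is highest at 69.7 and Snrpn lowest at 0.113, with snRNP protein genes spread from 0.113 to 41.4.

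Members varied little among mice of a group. The SD within groups of log2 CPM was lowest for Ppp1r8 (0.064), a nuclear inhibitor of protein phosphatase 1 that binds the spliceosome, had a median of 0.121 over the members and was under 0.2 for 58 of them. It was highest for Snrpn (0.659), which averaged 40 counts per library, and for Srsf12 (0.306). Some member counts are uncertain because sequence is shared with other genes and the strand setting of the counting is not given. Over 50% of the possible 100-base reads also match another gene for Hnrnpf (56.3%), Srsf4 (62.5%, an opposite-strand gene) and Snrpf (78.3%, mostly Ccdc38 on the opposite strand), and 42.2% do for Hnrnpa1. Clk3 shares 15.2% of its exon bases with a gene on the opposite strand, Snrpn overlaps its neighbours over 34.1%, and Ppp1r8, Prkrip1, Srek1, Magoh, Clk1 and Snrpb share no such read.

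The comparison of SFN-fed cKOAstro with SFN-fed ConAstro asks how the genotypes differ when both receive sulforaphane, and here the members were set furthest apart. All 12 snRNP protein genes, all 4 CLK kinases, all 4 exon junction core genes and the 3 singly listed genes had a higher level in SFN-fed cKOAstro, as did 10 of 11 SR, 8 of 9 SF3 and 13 of 20 hnRNP protein genes. Differences were small, with a member median of 0.15 on the log2 scale against 0.01 over the 16672 genes tested. None of the 63 members passed an adjusted p of 0.05 in edgeR's quasi-likelihood test, as none of all genes did (0%). The lowest adjusted p of a member was 0.195. At an unadjusted p under 0.05 there were 19 members higher and 1 lower, Hnrnpll, where 20.3% of all genes passed, and 3 members did not overlap between groups (1.18% of all genes).

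The 3 that did not overlap were Rbm8a, Prkrip1 and Ppp1r8. Rbm8a, which encodes the Y14 protein of the exon junction core, stood at 49.0, 46.2, 42.9, 43.3 and 43.7 CPM in the 5 SFN-fed ConAstro libraries and at 50.1 to 66.5 with a median of 58.3 CPM in the 7 SFN-fed cKOAstro libraries. Every SFN-fed cKOAstro library was above every SFN-fed ConAstro library, though the lowest of the former and highest of the latter were close. On the log2 scale the difference was 0.36 ± 0.08 (SE), and it was 0.40 without the pair of libraries that went against their labels. Without sulforaphane, Rbm8a was at 47.0, 50.2, 53.4 and 45.9 CPM in ConAstro and at 43.5 to 56.1 with a median of 51.0 CPM in cKOAstro, so the groups on control diet overlapped widely.

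Prkrip1, a protein of the catalytic spliceosome that was first known as an interactor of the kinase PKR, was at 13.2, 13.0, 13.1, 13.7 and 13.4 CPM in SFN-fed ConAstro and 14.7 to 19.6 with a median of 18.6 CPM in SFN-fed cKOAstro. The SFN-fed ConAstro values were tightly grouped (13.3 ± 0.266, SD, n = 5), and the SFN-fed cKOAstro values fell into a pair just above them, libraries 3 and 7, and 5 libraries at 18.01 or more. Prkrip1 differed by 0.41 ± 0.09, the largest value of a member in this comparison, and by 0.39 without the discordant libraries. Its control-diet values were 15.4, 14.5, 12.8 and 14.0 CPM in ConAstro and 14.4 to 16.5 with a median of 14.9 CPM in cKOAstro.

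Ppp1r8 was at 35.6, 33.8, 35.1, 36.8 and 34.8 CPM in SFN-fed ConAstro and 39.4 to 44.5 with a median of 42.2 CPM in SFN-fed cKOAstro, a difference of 0.26 ± 0.06 that stayed between 0.24 and 0.28 when any single library was left out. The means of the control-diet groups lay between those of the SFN-fed groups, and Ppp1r8 was at 39.8, 37.2, 42.0 and 40.0 CPM in ConAstro and 36.2 to 40.3 with a median of 39.2 CPM in cKOAstro. The SFN-fed ConAstro libraries did not overlap ConAstro, while SFN-fed cKOAstro did. Rbm8a, Prkrip1 and Ppp1r8 were taken up because they did not overlap between the SFN-fed groups as labelled. By this choice the discordant libraries lie on the side of their labels, which does not bear on whether the labels are right. The library labelled SFN-fed cKOAstro 2 was at 58.3, 19.1 and 44.1 CPM of these genes in turn. The library labelled SFN-fed ConAstro 1 was at 49.0, 13.2 and 35.6 CPM. Grouped by Aldh7a1 level, the SFN-fed libraries overlap for each of these genes, which follows from the same choice.

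**Figure D2:**
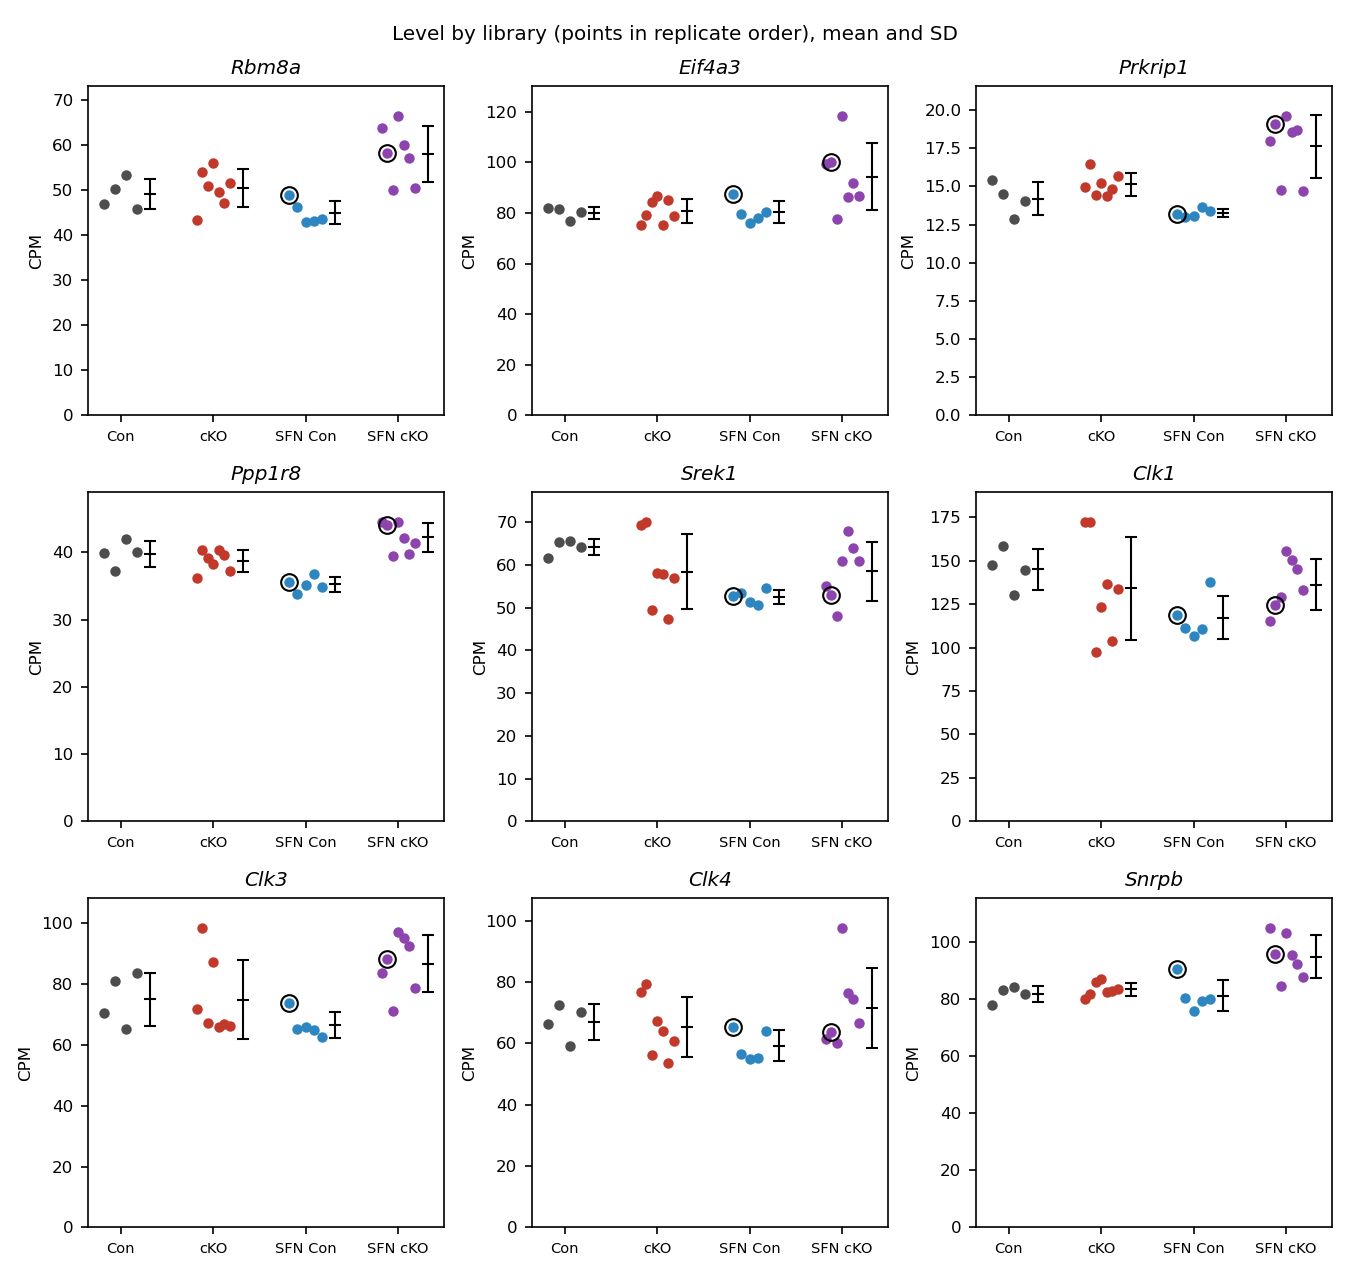
CPM of 9 members in each library, by group, with the group mean and SD (n = 4, 7, 5 and 7). Ringed points are the library labelled SFN-fed ConAstro 1 and the library labelled SFN-fed cKOAstro 2, whose Aldh7a1 goes against the label. Rbm8a, Prkrip1 and Ppp1r8 of SFN-fed cKOAstro lie above all SFN-fed ConAstro libraries, and Srek1 of SFN-fed ConAstro (50.6 to 54.7 CPM) lies below all ConAstro libraries (61.7 to 65.6 CPM).

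The other members of the exon junction core differed less between the SFN-fed groups. Eif4a3 was at 87.7, 79.8, 76.0, 78.2 and 80.4 CPM in SFN-fed ConAstro and 77.8 to 118 with a median of 92.0 CPM in SFN-fed cKOAstro (0.23 ± 0.09). Its highest value was in SFN-fed cKOAstro library 4, and its lowest, in library 3, lay within the SFN-fed ConAstro range. Magoh, the partner of Rbm8a, was at 15.0, 14.8, 15.3, 17.1 and 14.8 CPM and 15.5 to 20.9 with a median of 16.0 CPM (0.17 ± 0.10), and this was 0.06 without SFN-fed cKOAstro libraries 1 and 4, which held the 2 highest values. Casc3, the peripheral subunit of the core, was nearly level at 77.7 ± 4.67 and 78.7 ± 4.84 CPM (0.02 ± 0.06).

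All 4 CLK kinases had a higher level in SFN-fed cKOAstro at an unadjusted p under 0.05. Clk3 was at 73.8, 65.3, 65.8, 65.01 and 62.6 CPM in SFN-fed ConAstro and 71.2 to 97.0 with a median of 88.2 CPM in SFN-fed cKOAstro (0.38 ± 0.08), and the groups overlapped by SFN-fed cKOAstro library 3 alone. Clk2 differed by 0.32 ± 0.13, Clk4 by 0.27 ± 0.11 and Clk1 by 0.21 ± 0.09. Each of these 3 overlapped between the groups. Clk4 was at 0.17 without SFN-fed cKOAstro library 4, and among numbered libraries, described below, Clk4 was at 0.12, Clk1 at 0.10 and Clk2 at 0.20.

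Among the 12 snRNP protein genes the difference ran from 0.14 ± 0.08 for Snrpc, a U1 protein, to 0.29 ± 0.09 for Snrpa, which encodes the A protein of the U1 particle, and 7 were at an unadjusted p under 0.05. Snrpb, which encodes the Sm proteins B and B′, was at 90.4, 80.2, 75.9, 79.2 and 80.0 CPM in SFN-fed ConAstro and 84.5 to 105 with a median of 95.4 CPM in SFN-fed cKOAstro (0.22 ± 0.07). The groups overlapped by the library labelled SFN-fed ConAstro 1 alone, whose Aldh7a1 goes against its label. Without the discordant libraries Snrpb differed by 0.27 and the median of the 12 genes was 0.27, against 0.24 with them. Snrpn had the widest error (0.21 ± 0.45) at 0.125 to 0.862 CPM over these libraries, with a count too low to read a difference. It was at 0.01 without the discordant libraries and at -0.38 among numbered libraries. Its side within the counts of 12 snRNP genes, here and below, is therefore not a readable result.

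SR proteins had a median difference of 0.12, led by Srsf3 (0.20 ± 0.08), an SR protein that also takes part in export, which was the only one at an unadjusted p under 0.05. Srsf11 (0.17 ± 0.10) and Srsf2 (0.17 ± 0.08), a factor for exon inclusion, were next, and Srsf1, the founding member of the family, was at 0.12 ± 0.08. Srsf9 was at 0.14 ± 0.09 and Srsf6 at 0.12 ± 0.10, while Srsf5, Srsf10, Srsf7 and Srsf4 lay between 0.04 and 0.05. Srsf12 was the only SR gene on the lower side (-0.19 ± 0.19), with an error as large as the value. Without SFN-fed cKOAstro library 4 the differences were 0.11 for Srsf11, 0.11 for Srsf2, 0.08 for Srsf1, 0.07 for Srsf6, -0.05 for Srsf5 and -0.33 for Srsf12. Srsf9 was at 0.09 without library 1, Srsf1 was at 0.08 and Srsf5 at 0.01 without SFN-fed ConAstro library 4, and Srsf12 was at -0.06 without SFN-fed ConAstro library 5.

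The 9 SF3 genes had a median of 0.15, from -0.01 ± 0.07 for Sf3b1, the branch point scaffold of the U2 particle, to 0.17 ± 0.09 for Sf3a2, which was at 0.10 without SFN-fed cKOAstro library 4. Sf3b2 and Sf3b5, at 37.0 and 5.12 CPM per kilobase in ConAstro, differed by 0.16 ± 0.08 and 0.14 ± 0.09 between the SFN-fed groups. They were at 0.11 without library 4 and at 0.09 without library 1, respectively. The hnRNP proteins were the family nearest to the median of all genes, at 0.05. Hnrnpm (0.22 ± 0.09) and Hnrnpc (0.20 ± 0.08), a tetramer that measures and packs new transcripts, were at an unadjusted p under 0.05 on the higher side, and Hnrnpll (-0.14 ± 0.06), a regulator of alternative exons best known in lymphocytes, was on the lower side. Hnrnpul1 (-0.13 ± 0.07), Hnrnpa3 (-0.06 ± 0.07) and Hnrnpu (-0.05 ± 0.07) also had lower levels in SFN-fed cKOAstro, so the family did not share 1 direction.

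**Figure D3:**
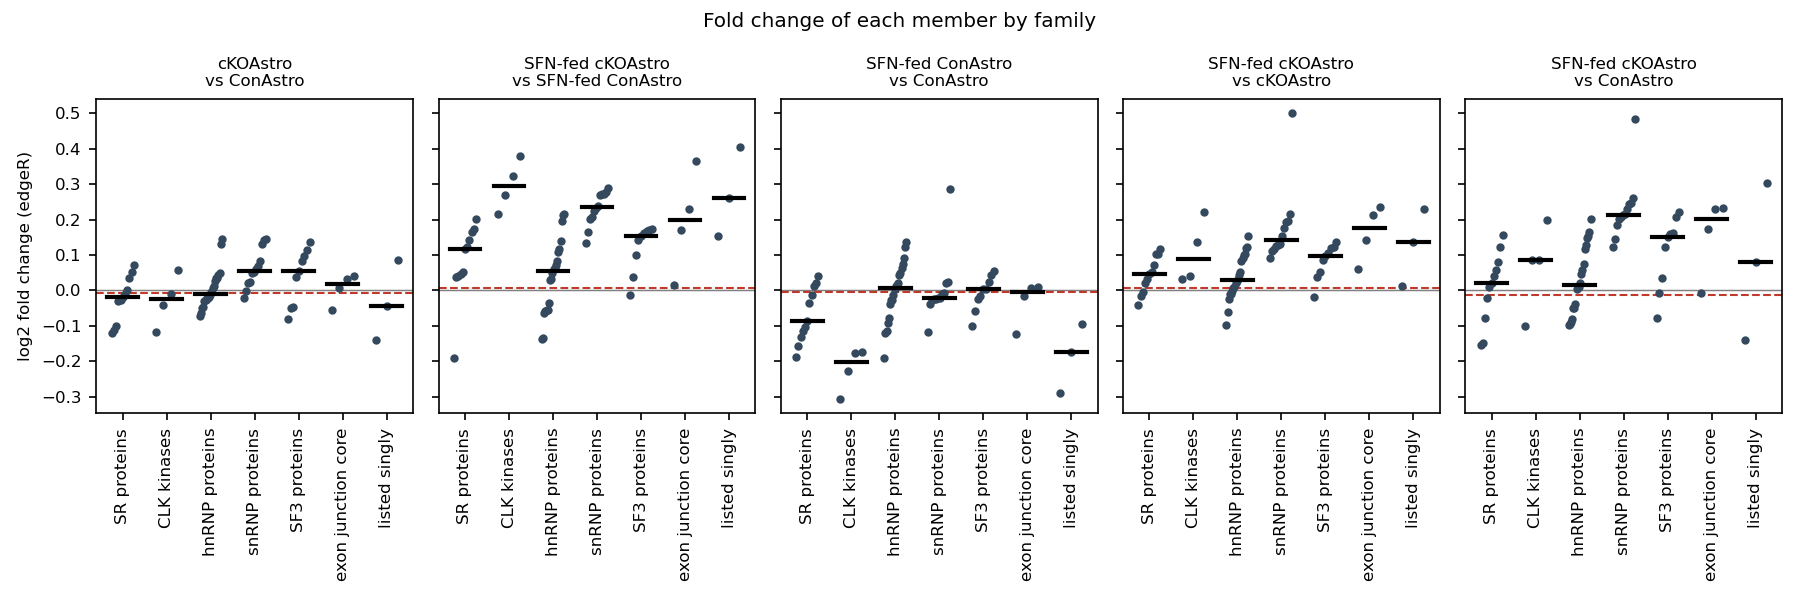
Log2 fold change of each member by family in 5 pairwise comparisons. Points are genes, bars are family medians and the dashed red line is the median of all genes tested. Between the SFN-fed groups the family medians run from 0.05 (hnRNP proteins) to 0.29 (CLK kinases), and between cKOAstro and ConAstro from -0.04 to 0.06.

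Other count models gave calls for some of these members. DESeq2 called 4 members (2.55% of the genes it gave an adjusted p), all higher in SFN-fed cKOAstro: Ppp1r8 (adjusted p = 0.00226), Prkrip1 (0.00817), Clk3 (0.0116) and Rbm8a (0.0116). limma-voom with sample quality weights called 13 members, 12 higher and Hnrnpll lower, where it called 26.4% of all genes. When SFN-fed cKOAstro library 3 was left out, edgeR called 701 genes, where the fit of all libraries tested 16672. Among them were 5 members: Clk3, Ppp1r8, Prkrip1, Rbm8a and Snrpa, with adjusted p of 0.0203 to 0.0465. Of 12 fits with a single library left out, this was the only 1 in which the member count moved from 0.

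Libraries did not contribute equally. Relative to the ConAstro mean, the median of the 63 members was 0.29 (log2) in SFN-fed cKOAstro library 4, 0.10, 0.08, 0.10 and 0.10 in libraries 1, 2, 5 and 6, and -0.04 and -0.01 in libraries 3 and 7. In library 4, 2 members were below the ConAstro mean, compared with 40 in library 3 and 37 in library 7. The 5 SFN-fed ConAstro libraries lay between -0.08 and 0.00. The library labelled SFN-fed cKOAstro 2, with a control-like level of Aldh7a1, was among those with high snRNP (0.28) and exon junction core (0.20) medians. The library labelled SFN-fed ConAstro 1 had a median of 0.00 over all members. Its snRNP (0.065) and exon junction core (0.038) medians were the highest of the SFN-fed ConAstro libraries. They were also above those of SFN-fed cKOAstro library 3 (0.048 and -0.004) and library 7 (0.006 and 0.031).

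Families did not follow 1 profile over libraries. The snRNP median was highest in SFN-fed cKOAstro library 1 (0.46), where the SR median was -0.05 and the CLK median was 0.02. In library 4 the SR (0.23), CLK (0.38), snRNP (0.35) and exon junction core (0.43) medians were all high. On the control diet the CLK median ranged from -0.24 and -0.20 in cKOAstro libraries 6 and 3 to 0.18 and 0.33 in libraries 1 and 2. It was below the ConAstro mean in all 5 SFN-fed ConAstro libraries, from -0.33 to -0.09.

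**Figure D4:**
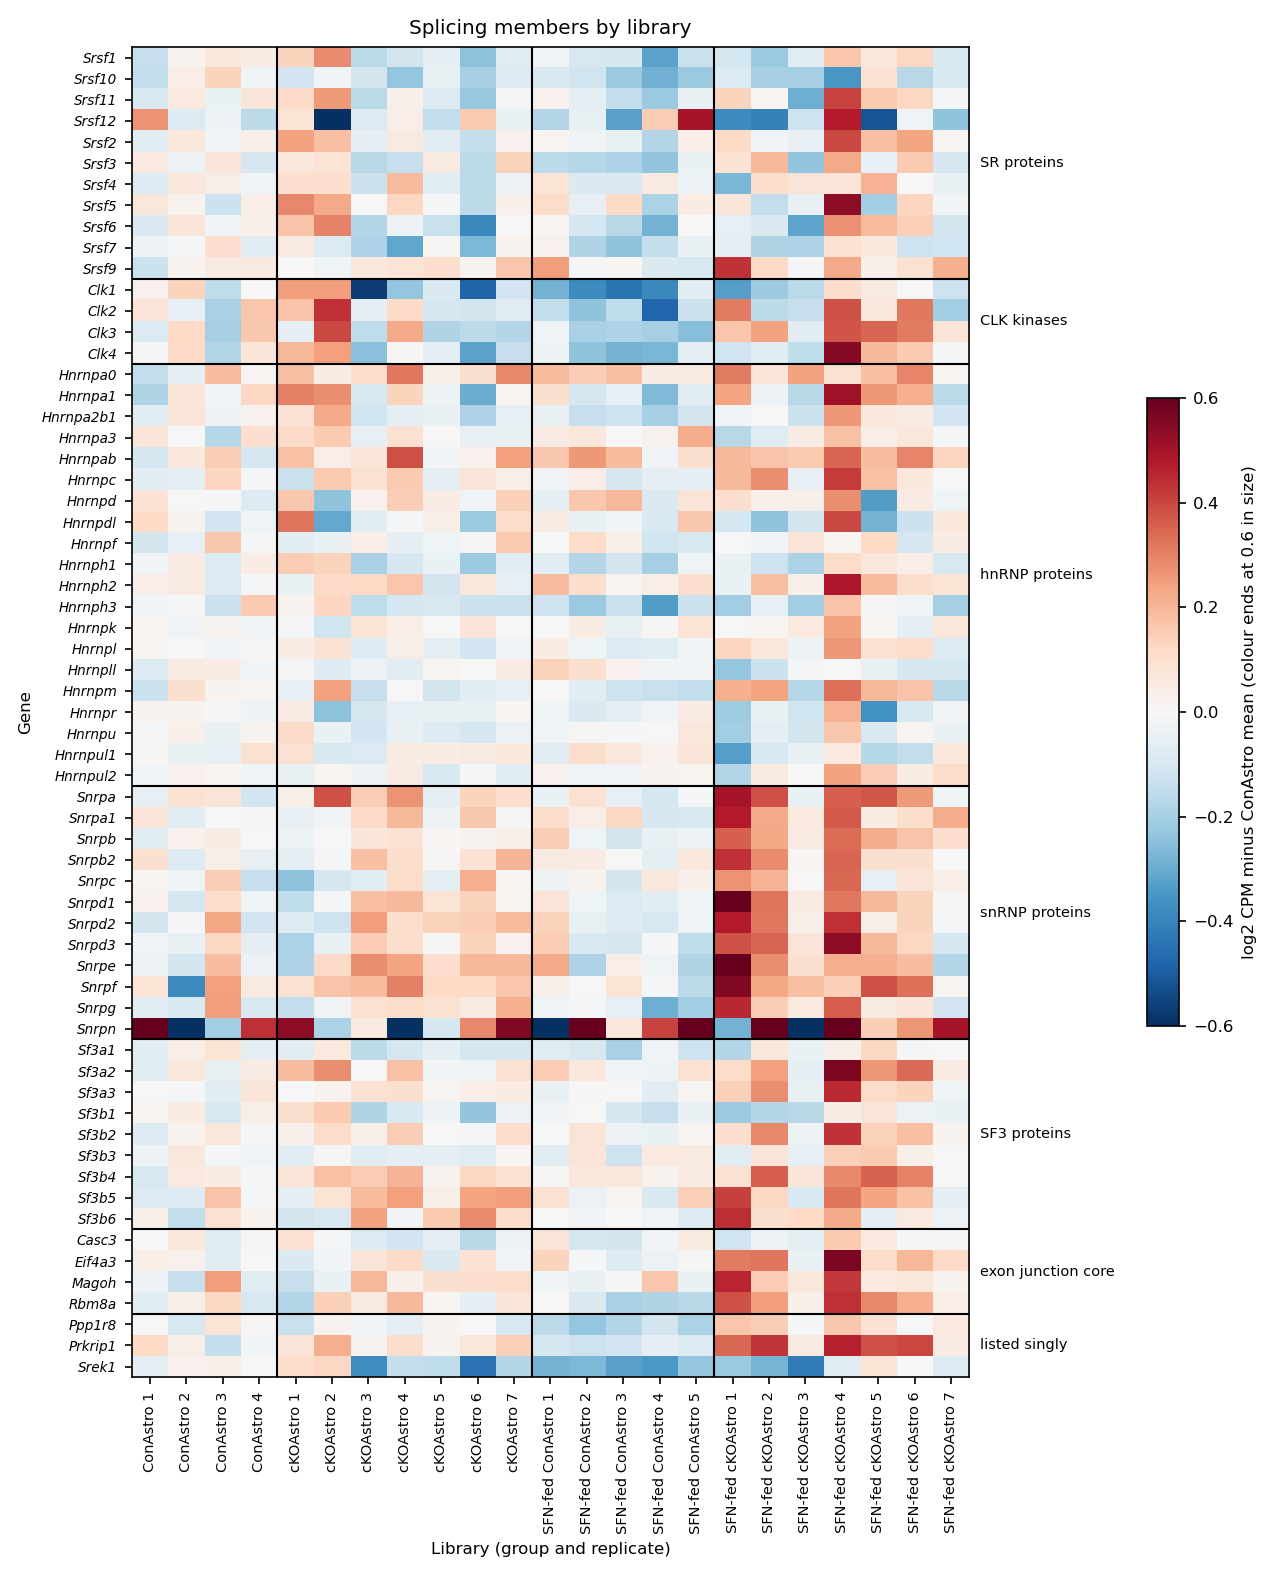
Log2 CPM of the 63 members, minus the ConAstro mean of each gene, in the 23 libraries (colour scale cut at 0.6 in either direction). SFN-fed cKOAstro library 4 is above the ConAstro mean for all but 2 members, whereas libraries 3 and 7 of that group are below it for 40 and 37.

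Markers of other cells moved with this comparison. All 10 microglial markers had a lower fitted level in SFN-fed cKOAstro (median -0.49; summed CPM of 347 to 3723 against 996 to 3172), as did all 10 endothelial markers (-0.74; 231 to 891 against 569.5 to 894) and 9 of 10 mural markers (-0.45; 876 to 2106 against 1527 to 2381), whereas 9 of 10 oligodendrocyte markers had a higher one (0.26). No marker on these lists was at 0 in every library. SFN-fed cKOAstro library 4 had the highest oligodendrocyte sum (62440 CPM) and library 1 had a microglial sum of 3595 CPM. The highest microglial sum, 3723 CPM, was in library 7, whose snRNP median was 0.006. Leaving out libraries 1 and 4 together brought the member median to 0.10, with the CLK median at 0.22, the snRNP median at 0.15 and 52 members still on the higher side. What these cells contribute to the member values was not tested.

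**Figure D5:**
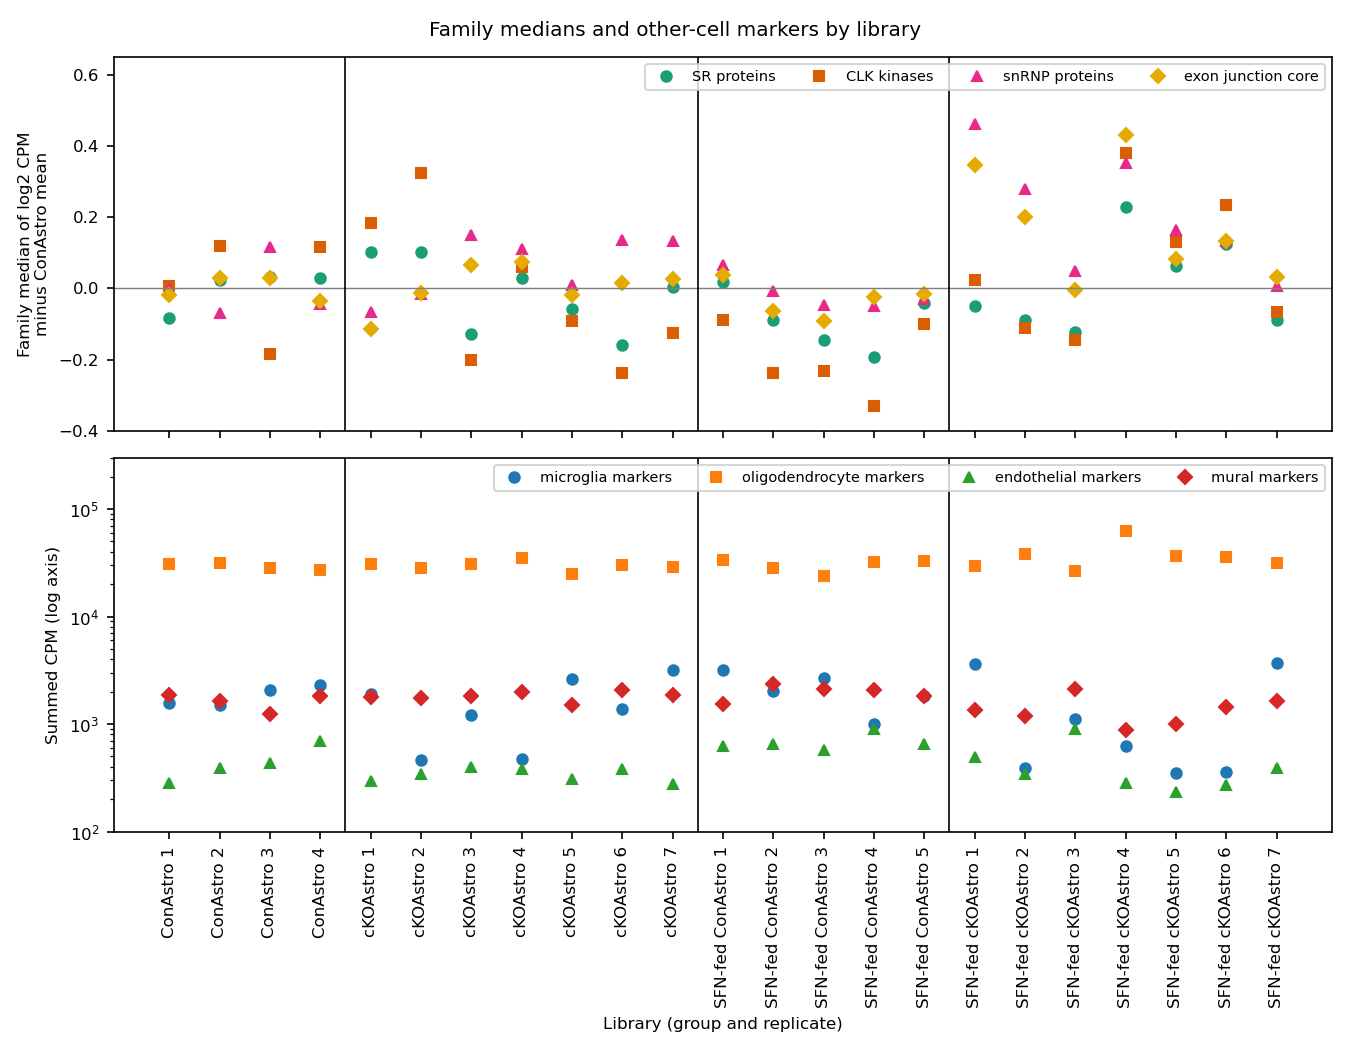
Above, the median log2 deviation from the ConAstro mean of the SR, CLK, snRNP and exon junction core genes in each of the 23 libraries. Below, summed CPM of the microglial, oligodendrocyte, endothelial and mural markers in the same libraries (log axis). The highest snRNP medians, 0.46 and 0.35, are in SFN-fed cKOAstro libraries 1 and 4, which hold 3595 CPM of microglial and 62440 CPM of oligodendrocyte markers respectively.

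Transcript length and library names also moved with the result. Over all genes the median difference between SFN-fed groups declined with merged exon length, from 0.13 under 1 kb and 0.14 at 1 to 2 kb to 0.07 at 2 to 4 kb, -0.02 at 4 to 8 kb and -0.13 above 8 kb. Members were above the median of all genes in each class, at 0.22 (n = 2), 0.23 (n = 4), 0.17 (n = 26), 0.11 (n = 21) and 0.01 (n = 10). Library names start with Astro or with a number. Among numbered libraries only, the member median was 0.07. The CLK median was then 0.16 in place of 0.29, the SR median 0.04 in place of 0.12 (Srsf6 at -0.01), the SF3 median 0.08 and the hnRNP median 0.01, whereas the snRNP median was 0.26 and the exon junction core median 0.18. Among libraries numbered 147, with 1 SFN-fed cKOAstro library (library 3, which is near the ConAstro level) and 2 SFN-fed ConAstro libraries, the member median was 0.02.

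The comparison of SFN-fed ConAstro with ConAstro asks what sulforaphane does where Aldh7a1 is intact. The members as a whole were nearly level (median -0.02, 24 higher and 39 lower, against -0.01 over 16509 genes tested), but the 4 CLK kinases and the 3 singly listed genes all had a lower level in the SFN-fed mice. No member passed an adjusted p of 0.05 in edgeR, where no gene did (0%), and the lowest adjusted p of a member was 0.535. At an unadjusted p under 0.05 there were 9 members, all lower (6.54% of all genes): Clk1, Clk4, Srek1, Ppp1r8, Srsf3, Srsf10, Hnrnpa2b1, Hnrnph1 and Hnrnph3. Srek1 and Ppp1r8 did not overlap between the groups (2.04% of all genes).

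Srek1, an SR-related protein that binds and modulates SR proteins, was at 61.7, 65.3, 65.6 and 64.3 CPM in ConAstro and 52.8, 53.4, 51.3, 50.6 and 54.6 CPM in SFN-fed ConAstro. Both groups were narrow and lay apart, with a difference of -0.29 ± 0.04 that was between -0.31 and -0.28 with any single library left out. DESeq2 called it (adjusted p = 6.66e-07), where it called 0.14% of genes. In the cKO groups Srek1 was more variable, at 47.3 to 70.1 with a median of 57.8 CPM in cKOAstro and 48.0 to 68.0 with a median of 60.9 CPM in SFN-fed cKOAstro, which overlapped fully (0.01 ± 0.10).

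Clk1, a kinase of SR proteins whose own transcript is known for regulated intron retention, was at 147, 159, 130.0 and 144 CPM in ConAstro and 119, 111, 107, 111 and 138 CPM in SFN-fed ConAstro, with 1 SFN-fed library, the fifth, inside the ConAstro range. It differed by -0.31 ± 0.08, the largest value of a member here. Clk2 was at -0.23 ± 0.11, Clk4 at -0.18 ± 0.07 and Clk3 at -0.17 ± 0.08. Srsf10 (-0.19 ± 0.07), a splicing repressor that is dephosphorylated on heat shock, was the SR gene with the largest difference, and Srsf3 was at -0.16 ± 0.05. SR genes had a median of -0.09, with 8 of 11 lower, whereas the exon junction core (0.00), hnRNP (0.01), SF3 (0.00) and snRNP (-0.02) medians were near that of all genes.

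Without the library labelled SFN-fed ConAstro 1, the member median was -0.04, the CLK median was -0.23, the SR median was -0.12 and 13 members had an unadjusted p under 0.05, as did 1379 of 16405 genes. Of 6 nuclear-retained RNAs, 5 had a lower fitted level in SFN-fed ConAstro (median -0.38), and all 10 endothelial markers had a higher one (median 0.59, summed CPM of 569.5 to 894 against 282 to 696), as did all 10 microglial markers (0.17), all 10 mural markers (0.32) and 8 of 9 neuronal markers (0.31), whereas all 8 ependymal markers had a lower one (-0.35). Their part in the lower CLK and Srek1 values was not tested. All ConAstro libraries were numbered 143 and no SFN-fed ConAstro library was, so this name and the diet cannot be told apart.

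The comparison of SFN-fed cKOAstro with cKOAstro asks what sulforaphane does after deletion. The member median was 0.09 against 0.01 over 16903 genes, with 53 of 63 members higher. No member was called (0% of all genes), the lowest adjusted p was 0.459, 7 members were higher at an unadjusted p under 0.05 (10.9% of all genes) and none failed to overlap (0.0947%). The 7 were Rbm8a, Eif4a3, Prkrip1, Ppp1r8, Snrpb, Snrpa1 and Snrpd3.

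By role, the exon junction core had the largest median (0.18), ahead of snRNP proteins (0.14, 12 of 12 higher) and the singly listed genes (0.14). Eif4a3 was at 75.3 to 86.7 with a median of 79.1 CPM in cKOAstro and, as given above, reached 118 CPM in SFN-fed cKOAstro (0.24 ± 0.08). Snrpb was at 80.0 to 87.0 with a median of 83.0 CPM in cKOAstro, and 6 of the 7 SFN-fed cKOAstro libraries were above that range (0.20 ± 0.06). CLK kinases (0.09), SR proteins (0.05) and hnRNP proteins (0.03) were closer to the median of all genes, and Clk1 differed by 0.03 ± 0.13. The member median was 0.06 without SFN-fed cKOAstro library 4 and 0.09 without the discordant library. Among numbered libraries only it was 0.02 (CLK median 0.00, SR median -0.04, snRNP median 0.12, exon junction core median 0.14), and among libraries named Astro, with 2 cKOAstro and 3 SFN-fed cKOAstro libraries, it was 0.09. All 10 oligodendrocyte markers (0.31) and all 10 endothelial markers (0.27) had a higher fitted level in SFN-fed cKOAstro here, and 8 of 10 mural markers (-0.39) and all 8 ependymal markers (-0.45) a lower one. Their part was not tested.

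SFN-fed cKOAstro against ConAstro sets the treated deletion beside the untreated control. The member median was 0.09 against -0.01 over 16753 genes, with 47 members higher. No member was called by edgeR (0% of all genes), the lowest adjusted p was 0.557, 8 members were higher at an unadjusted p under 0.05 (Rbm8a, Eif4a3, Prkrip1, Snrpa, Snrpa1, Snrpb, Sf3b4 and Hnrnpab, where 8.67% of all genes passed), and 1, Snrpb, did not overlap (1.16% of all genes). Snrpb was at 78.1, 83.2, 84.3 and 81.6 CPM in ConAstro, just under the lowest SFN-fed cKOAstro library (0.21 ± 0.07). limma-voom called Prkrip1 (0.30 ± 0.10 in edgeR, adjusted p = 0.0493 in limma-voom), where it called 3.92% of all genes. All 12 snRNP genes were on the higher side (median 0.21), followed by the exon junction core (0.20) and SF3 proteins (0.15). Clk1 (-0.10 ± 0.09), Srek1 (-0.14 ± 0.09) and Srsf10 (-0.15 ± 0.08) had lower levels, none at an unadjusted p under 0.05. Within libraries numbered 143, with 3 of the SFN-fed cKOAstro and all ConAstro libraries, the member median was 0.05. With numbered libraries only it was 0.03, with 35 members higher, and with the name series as a covariate it was 0.04. In the numbered libraries the snRNP median was 0.20 and the exon junction core median 0.17, but the CLK median was -0.07 and the SR median -0.04. Over all libraries the member median was 0.12 without the discordant library and 0.14 without library 7. All 10 oligodendrocyte markers (0.32) and all 9 neuronal markers (0.27) had a higher fitted level in SFN-fed cKOAstro than in ConAstro, and all 10 microglial (-0.33) and all 8 ependymal markers (-0.11) a lower one. Their part was not tested.

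cKOAstro against ConAstro asks what the deletion does on the control diet, and the members were level. Their median was 0.01 against -0.01 over 17406 genes, with 33 higher and 30 lower, from -0.14 ± 0.10 for Srek1 to 0.15 ± 0.08 for Hnrnpa0, an hnRNP protein that binds AU-rich RNA. No member was called, where 4 genes were (0.023%), the lowest adjusted p was 0.981, no member had an unadjusted p under 0.05 (3.74% of all genes) and none failed to overlap (0.529%). Family medians lay between -0.04 for the singly listed genes and 0.06 for snRNP proteins. Rbm8a (0.03 ± 0.07), Eif4a3 (0.01 ± 0.05), Clk3 (-0.01 ± 0.12) and Snrpb (0.02 ± 0.04) were near 0. The largest SF3 difference was that of Sf3b5 (0.14 ± 0.08). Standard errors of the members ran from 0.04 to 0.33 in this comparison. Even differences above their error, such as those of Hnrnpa0 and Sf3b5, did not reach an unadjusted p under 0.05 in edgeR. Small differences may thus have gone undetected. Clk1 had a wide range, 97.6 to 172 with a median of 134 CPM in cKOAstro, with libraries 1 and 2 above and libraries 3, 4 and 6 below all ConAstro libraries. All 10 endothelial (-0.43) and all 10 microglial markers (-0.24) had a lower fitted level in cKOAstro than in ConAstro. Higher were 9 of 10 mural (0.20), all 8 ependymal (0.36) and all 9 neuronal markers (0.30). Their part was not tested. All ConAstro libraries were numbered 143 and no cKOAstro library was, so this name and the genotype cannot be told apart here.

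The genotype by diet interaction asks if cKOAstro and ConAstro mice differed by another amount on the SFN diet. Its member median was 0.13 against 0.00 over 17302 genes, and 53 of 63 members were positive, meaning a larger cKOAstro minus ConAstro difference with SFN. No member passed in edgeR (0% of all genes, lowest adjusted p of a member 0.673), and 7 had an unadjusted p under 0.05, all positive (7.32% of all genes): Rbm8a, Clk3, Ppp1r8, Prkrip1, Srek1, Snrpb and Sf3a1. Ppp1r8 (0.30 ± 0.07) had the smallest error of the 7, and DESeq2 called it (adjusted p = 0.0106), where it called 0.0174% of genes. All 4 CLK kinases were positive (median 0.32), led by Clk3 (0.39 ± 0.15), and the 3 singly listed genes were between 0.29 and 0.32. SF3 proteins (0.07) and hnRNP proteins (0.02) were the families nearest to 0. The member median was 0.15 without the discordant libraries. Because this value combines the 4 groups above, it adds no libraries to them. It also carries the limits on library names given above for comparisons with ConAstro.

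Other genes of the splicing pathway, 106 genes on 6 lists compiled with earlier results of these data known, are given beside the members. Between the SFN-fed groups 83 of the 106 had a higher level in SFN-fed cKOAstro, with a median of 0.14. At an unadjusted p under 0.05 in edgeR, 37 were higher and 3 lower (37.7%, against 20.3% of all genes). All 13 LSm proteins, which form the rings of U6 snRNA and of decay complexes, were on the higher side (median 0.24), with Lsm7 at 0.42. The U1, U5 and tri-snRNP proteins had 17 of 20 higher (0.17, Sart1 at 0.29), the U2 auxiliary and branch point factors 10 of 13 (0.14, Phf5a at 0.33) and the Prp19 complex 17 of 20 (0.10, Cwc15 at 0.32). Peripheral exon junction, export and decay factors had 15 of 20 higher (0.15), with Smg1, the kinase that starts nonsense-mediated decay, lowest at -0.36. SR-related coactivators and SR kinases were closest to all genes, with 11 of 20 higher (0.03).

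In SFN-fed ConAstro against ConAstro 34 of these 106 genes were higher (median -0.03). At an unadjusted p under 0.05 in edgeR, 7 were lower (6.6%, near the 6.54% of all genes). Tra2a, a splicing activator of the SR-related group, was at -0.29. On the control diet the cKOAstro minus ConAstro median was 0.00, with 54 of 106 higher. In SFN-fed cKOAstro against cKOAstro 88 of 106 were higher (median 0.10), and against ConAstro 75 were (median 0.08). For the interaction 87 of 106 were positive (median 0.13).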

How the data were processed

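RNA was sequenced from ACSA-2-isolated cortical astrocytes of 23 mice, 1 library per mouse. The authors deposited raw counts of reads per gene symbol, with no normalization and no pooling. Their processing notes name FastQC, STAR and mm10, and the study's methods give STAR's gene count option for its cortical RNA-seq. Tool versions, the annotation and the strand setting are not given in the sources used here. All 23 columns were matched to samples by library name (0 columns were left over). Counts summed to 46890715 to 391701247 per library. No pair of libraries in a group looked like 1 library deposited again (lowest chi-square per degree of freedom 42.4).

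Members and all gene lists were chosen with earlier results of these data known. Each pairwise comparison was fitted to its own groups with edgeR 4.0.16 (quasi-likelihood test, TMM factors, filterByExpr with a minimum count of 10 and a minimum total of 15, Benjamini-Hochberg adjustment over all genes tested, threshold 0.05). The interaction used all 4 groups. CPM and log2 CPM (prior count 2) used TMM factors, and levels per kilobase used merged exons of GENCODE M21, to which 23376 of the 24411 symbols and all 63 members matched. Fold changes are log2 with edgeR's standard error. Alternatives were DESeq2 1.42.0, limma-voom (limma 3.58.1), RLE factors, no filter, 1 fit of all groups, replicate number as a block, numbered libraries only, name series as a covariate, no discordant libraries, thinned counts and each library left out. Libraries of 1 name prefix, Astro-named libraries only, and omission of SFN-fed cKOAstro 1 and 4 were added after the data were seen. R 4.3.3 and Python 3.11.15 were used.

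The rule for named genes was all SR, CLK, exon junction core and singly listed genes and, of the hnRNP, snRNP and SF3 families, the most and least abundant by mean CPM over all libraries and the gene with the largest difference in each pairwise comparison. Further members with an unadjusted p under 0.05, or at the ends of a range, were named after their values were seen. Replicate numbers are shared between groups in the titles, but of 24 same-numbered pairs 6 had correlated deviations over 0.1 (-0.21 to 0.34), so the samples share only a number. P-values measure the spread between these mice.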

Additional observations from a re-analysis of the deposited data

Results flagged for a closer look

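Of 144 combinations of a group and a value examined, 7 had a library set apart from the rest of its group by Dixon's test at 95%, and chance alone gives about 1 in 20. In cKOAstro, library 2 had the lowest Srsf12 (2.18 CPM, others 3.46 to 4.26), the highest Hnrnpm (222 CPM, others 170 to 187) and the highest Sf3a1 (95.4 CPM, others 82.2 to 87.8). This is the library labelled male that holds Xist. In SFN-fed ConAstro, library 4 had the highest Magoh (17.1 CPM, others 14.8 to 15.3).

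In SFN-fed cKOAstro, library 4 had the highest Srsf12 (5.31 CPM, others 2.67 to 3.76), the highest Srsf5 (355 CPM, others 212 to 267) and the highest Snrpn (0.862 CPM, others 0.125 to 0.392). This library also had the highest oligodendrocyte marker sum, 62440 CPM against 26270 to 38200 CPM in the other 6, and the link between these values was not tested.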

How the results depend on the processing

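The number of members past an adjusted p of 0.05 was 0 in edgeR for every comparison and was above 0 under some alternatives. Between the SFN-fed groups it was 4 in DESeq2, 13 in limma-voom, 1 (Ppp1r8, adjusted p = 0.0472) with all 4 groups in 1 edgeR fit, and 0 to 5 with single libraries left out, the 5 without SFN-fed cKOAstro replicate 3. Over all genes these fits called 367, 4398, 3 and, without that replicate, 701. It was 1 in DESeq2 for SFN-fed ConAstro against ConAstro and for the interaction, and 1 in limma-voom for SFN-fed cKOAstro against ConAstro. With single libraries left out it was 0 to 0 in the other 5 comparisons.

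The member median between the SFN-fed groups moved from 0.15 to 0.07 with numbered libraries only and to 0.019 with libraries numbered 147 only, and with numbered libraries only from 0.09 to 0.019 for SFN-fed cKOAstro against cKOAstro and from 0.09 to 0.03 against ConAstro (0.036 with the name series as a covariate). With single libraries left out the medians ran from 0.01 to 0.03 (cKOAstro against ConAstro), 0.11 to 0.18 (SFN-fed groups), -0.04 to -0.01 (SFN-fed ConAstro against ConAstro), 0.06 to 0.13 (SFN-fed cKOAstro against cKOAstro), 0.07 to 0.14 (against ConAstro) and 0.09 to 0.15 (interaction). The lowest values of the 3 comparisons of SFN-fed cKOAstro came without its replicate 4. With the replicate block the medians were 0.03, 0.16, -0.02, 0.09, 0.11 and 0.12 in the same order, and 0 members were called in each, so the block changed no call. Without the discordant libraries they were 0.17 (SFN-fed groups), -0.04, 0.09, 0.12 and 0.15. Without SFN-fed cKOAstro 1 and 4 they were 0.10, 0.04 (against cKOAstro), 0.05 (against ConAstro) and 0.08 (interaction). The cause of these shifts was not tested. Of 210 values of named members under 5110 alternative settings, 334 settings changed the sign; of the 42 values of at least 0.2 in size, 8 of 1103 did. Depth limits Snrpn, at 40 counts per library on average, and the discordant labels limit every comparison of the SFN-fed groups.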

Other observations

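The 32 tissue-specific splicing regulators, such as Rbfox, Nova, Celf, Ptbp, Mbnl and Elavl proteins, which choose exons in particular cell types, were level as a group. Between the SFN-fed groups 14 of the 32 had a higher level in SFN-fed cKOAstro (median -0.04 on the log2 scale), with Mbnl3, a muscleblind protein, furthest from 0 at -0.83. In SFN-fed ConAstro against ConAstro 18 were higher (median 0.01), with Esrp2, an epithelial splicing regulator, at 0.84. In cKOAstro against ConAstro 13 were higher (median -0.03), with Khdrbs2, a STAR family protein of neurons, at -0.48. For the interaction 18 were positive (median 0.01), with Esrp2 at -1.18.

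Nuclear-retained RNAs (6 genes) had a median of 0.19 between the SFN-fed groups and 0.10 in cKOAstro against ConAstro. Immediate early and heat shock genes (20 genes), a sign of handling, had medians of -0.10 in cKOAstro against ConAstro, -0.09 between the SFN-fed groups, 0.10 in SFN-fed ConAstro against ConAstro and 0.14 in SFN-fed cKOAstro against cKOAstro. Neuronal markers (9 genes) had medians of 0.30 in cKOAstro against ConAstro and 0.05 between the SFN-fed groups, and ependymal markers (8 genes) of 0.36 and 0.23, but of -0.35 in SFN-fed ConAstro against ConAstro and -0.45 in SFN-fed cKOAstro against cKOAstro. Oligodendrocyte precursor markers (8 genes) were at -0.48 between the SFN-fed groups, where 6 were lower. Astrocyte markers (10 genes) were near level in these comparisons, at 0.01 and -0.04. Of 5 red blood cell genes, 4 were at 0 in every library.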
